A study of Mus musculus with 24 samples.

Results

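Collagen chain genes were followed here through 6 sorted cell populations of the young mouse skeleton. A member is any protein-coding gene entry whose symbol is Col, a type number, the letter a and a chain number; 44 entries matched, and 43 of 22053 remained after Col10a1, a marker of hypertrophic cartilage, was left out. The 24 libraries, 4 in each group, came from male mice at postnatal day 10, labelled WT, as primary cells of the spine or of the femur and tibia. All groups shared a sort gate without CD31, TER119, CD45, Thy, 6C3 or CD105 and with CD200, a marker combination used for mouse skeletal stem cells. Each population was then divided by embigin (EMB), a cell surface protein, into EMB+ and EMB- cells. Vertebral cells were also divided by GFP, which the series' design ties to a Cre recombinase at Zic1, a transcription factor gene; the 4 vertebral groups thus combine GFP+ or GFP- with EMB+ or EMB-, and the long bone groups, all GFP-, are EMB+ or EMB-. The reporter and Cre alleles are not described further, and the WT label stands beside them.

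The labels carry limits that touch every comparison. The titles of the 4 vertebral GFP- EMB+ libraries name GFP+ EMB- cells, and these libraries were grouped by their cell type label. Titles call the libraries biological replicates without naming the animals behind them. If libraries of the same group came from the same animals, the p-values cover technical spread alone. If libraries of different groups shared animals, the main fit leaves that pairing out. In RNA of pooled sorted cells, fewer cells of a type and less RNA per cell cannot be told apart.

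Collagens are matrix proteins whose alpha chains, each the product of its own gene, wind into a helix and then assemble outside the cell. Type II collagen makes the fibrils of cartilage together with types IX and XI, and type I makes those of bone, tendon and skin together with types III and V. Type IV forms the sheet of basement membranes, type VI forms beaded filaments around cells, and fibril-associated chains (FACIT collagens) sit on fibril surfaces. Chains were therefore described by these classes.

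The sort labels could be read against the genes they name. Group means of Emb ran from 34.7 to 49.995 FPKM with EMB and from 0.398 to 1.027 without it. Zic1 averaged 0.827 ± 0.43 FPKM (SD, n = 4) in EMB- and 1.87 ± 0.396 in EMB+ cells carrying GFP; no GFP- vertebral library exceeded 0.108 FPKM, and every long bone value is listed as 0. FPKM (fragments scaled to gene length and library total) is a level per length, so chains can be compared with each other; sequencing depth cannot be read from it. Between 10158 and 11204 genes reached 1 FPKM in a library. Replicate 4 of long bone EMB- stood apart, with no correlation above 0.944 to the others of its group, and hemoglobin genes made 6.88% ± 1.74 of summed FPKM in that group and 2.34% ± 0.485 in vertebral GFP- EMB- libraries, against at most 0.170% on average in the other 4 groups.

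Collagen RNA was a large part of what these cells made. Summed over the 43 members it took 18.1% ± 0.716 of all FPKM in GFP+ vertebral cells lacking EMB and 13.5% ± 0.144 in those with it, and 17.4% ± 0.408 and 13.3% ± 0.233 in the matching GFP- cells. Long bone cells gave 13.1% ± 2.38 without EMB and 14.8% ± 1.27 with it. By mean level over all libraries Col2a1, the chain of type II collagen, ranked 1 of 21948 genes, Col1a2 3, Col1a1 4, and Col9a2, Col9a3 and Col9a1 ranked 17 to 19. Of the 43 members 28 had a mean of 10 FPKM or more in at least 1 group, 19 had it in every group, and 34 passed the filter for testing (1 FPKM or more in 4 libraries).

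**Figure D1:**
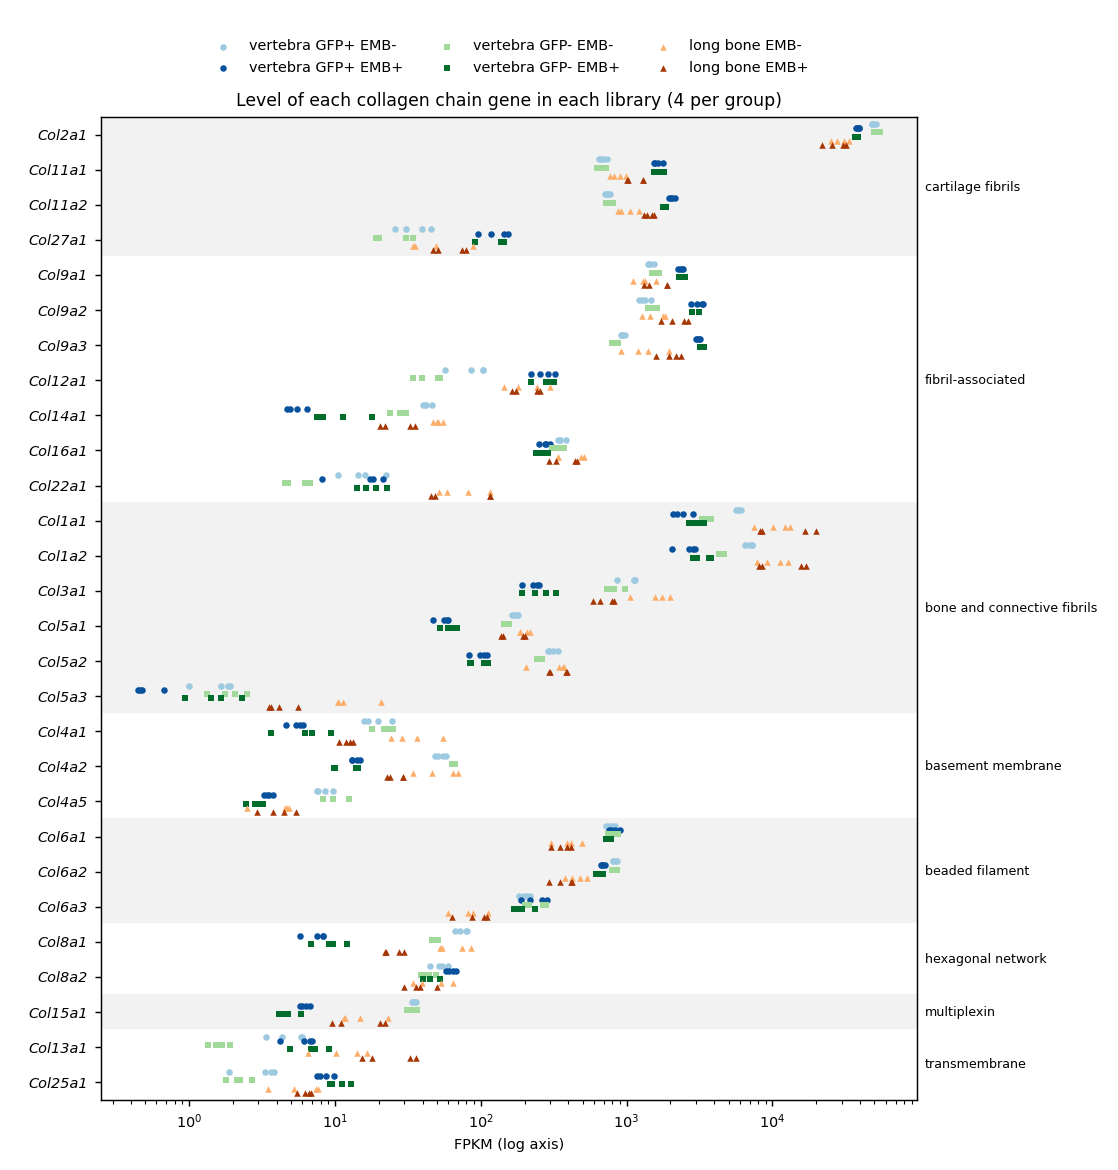
FPKM (log axis) of the 28 collagen chain genes with a group mean of 10 FPKM or more, by class; each point is a library, with circles for vertebral GFP+, squares for vertebral GFP- and triangles for long bone cells, light for EMB- and dark for EMB+. Col2a1 is the highest chain in every library, and the light and dark points of Col8a1, Col3a1, Col4a1 and Col14a1 do not overlap within any of the 3 pairs.

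**Figure D2:**
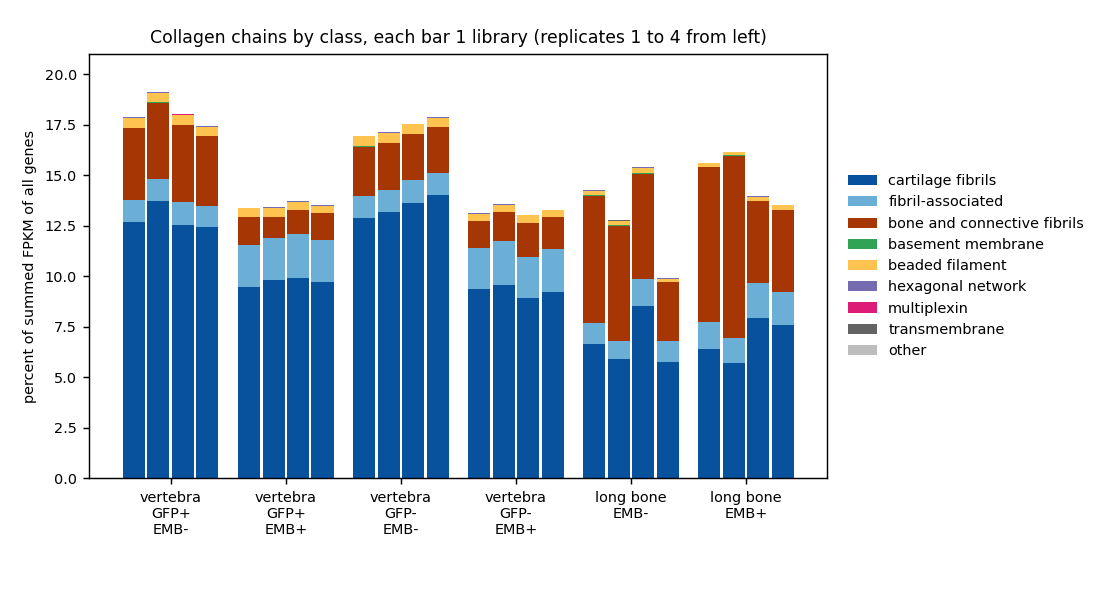
Percent of summed FPKM of all genes (linear axis from 0) taken by each collagen class, stacked; each bar is a library, 4 in each of the 6 groups. Vertebral EMB- libraries had the highest totals, and the bone and connective tissue fibril chains took a larger part in long bone than in vertebral EMB+ libraries.

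The other 9 members were not tested, as they stayed below the filter: Col4a3, Col4a4, Col7a1, Col23a1, Col28a1, Col20a1, Col6a4, Col6a5 and Col19a1. They include the remaining type IV chains of kidney and lens membranes and the anchoring fibril chain of skin, Col7a1. Their highest value in any library was 1.44 FPKM, for Col20a1 in long bone EMB- replicate 2.

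EMB+ and EMB- cells were compared first. Each change below is a log2 difference of FPKM plus 1 with its standard error after ±, tested in limma with an adjusted p under 0.05 over 11767 genes; fold changes are ratios of mean FPKM. In vertebral GFP+ cells 11 of the 34 tested members rose with EMB and 15 fell, while 42.1% of all genes tested were higher and 7.85% lower. In vertebral GFP- cells 12 rose and 13 fell, against 41.7% and 10.6% of all genes. In long bone 6 rose and 8 fell, against 17.5% and 16%. The share of members that fell was above that of all genes in all 3 comparisons, and the share that rose was below it in the vertebral comparisons and near it in long bone. The second reading depended on the scaling, because the deposited values put far more genes higher than lower in vertebral EMB+ cells. Under median-ratio scaling 12.9% of all genes were higher and 14.7% lower in GFP+ cells, against 26.5% and 50% of the tested members, and 15.3% and 19.7% in GFP- cells, against 32.4% and 50% of members. With quantile normalization or rescaling to genes other than collagen and hemoglobin, 14.7% to 21.1% of all genes and 29.4% to 35.3% of members were higher in the vertebral comparisons, so the members' share was above that of all genes in both directions. The groups did not overlap for 28, 26 and 11 of the 34 members, against 50.6%, 51.5% and 24.7% of all genes. All genes together shifted by a median of 0.319, 0.303 and 0.076, and members had medians of -0.189, -0.173 and 0.013.

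**Figure D3:**
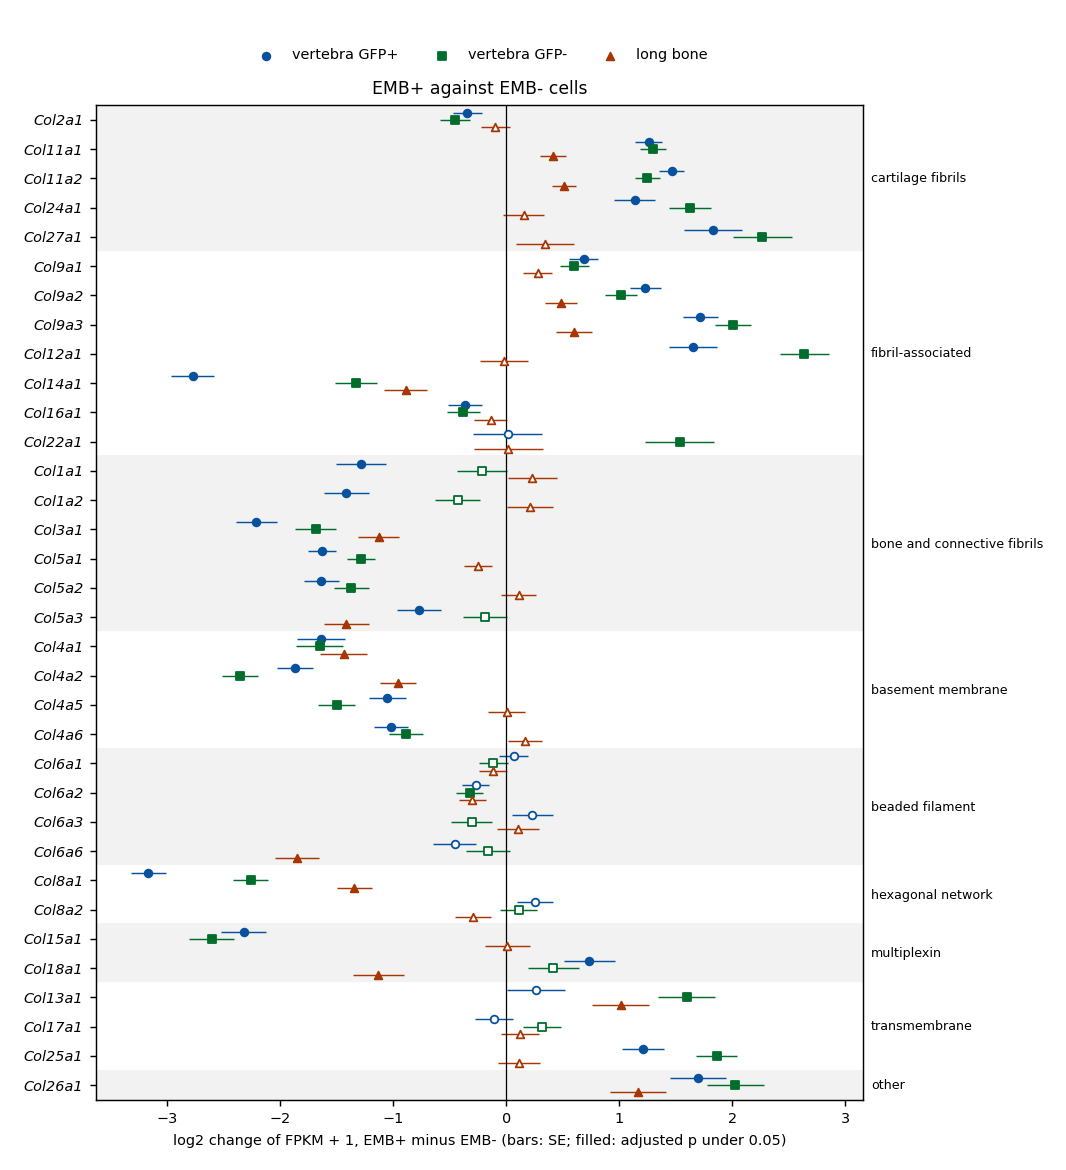
Log2 change of FPKM + 1, EMB+ minus EMB-, for each of the 34 tested collagen chains by class, with circles for vertebral GFP+, squares for vertebral GFP- and triangles for long bone cells; bars are standard errors and filled points passed an adjusted p of 0.05. Chains placed in the cartilage fibril class, other than Col2a1, lie right of 0. Col3a1, Col4a1, Col14a1 and Col8a1 are filled and left of 0 in all 3 comparisons.

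The cartilage fibril chains other than Col2a1 rose in vertebral EMB+ cells. Of the 5 chains placed in this class, 4 rose and 1 fell in both vertebral comparisons, and 2 rose in long bone. Placing Col24a1 here is uncertain, as its highest group means were in long bone (8.23 FPKM without EMB and 9.03 with it). Apart from it, Col11a1, Col11a2 and Col27a1 rose and Col2a1 fell in both vertebral comparisons. Col11a1 and Col11a2 encode chains of type XI collagen, which lies inside cartilage fibrils and limits their width. The 250 bases before the start of each gene are shown because both chains rose in all 3 comparisons; they are from RefSeq on GRCm38.p6, Col11a1 at chr3:114030290-114030539 on the plus strand and Col11a2 at chr17:34038888-34039137 on the plus strand, and hold no annotated exon. Capitals mark any of 4 motifs on either strand: the TATA box, spelled TATAAA, the CCAAT box, the GC box, spelled GGGCGG, and the SOX core, spelled ACAAAG; matches may overlap.
Col11a1: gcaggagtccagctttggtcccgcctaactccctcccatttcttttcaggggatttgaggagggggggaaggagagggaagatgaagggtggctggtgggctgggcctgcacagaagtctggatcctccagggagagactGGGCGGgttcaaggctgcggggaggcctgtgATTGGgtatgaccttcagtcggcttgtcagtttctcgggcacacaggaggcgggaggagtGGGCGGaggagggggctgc
Col11a2: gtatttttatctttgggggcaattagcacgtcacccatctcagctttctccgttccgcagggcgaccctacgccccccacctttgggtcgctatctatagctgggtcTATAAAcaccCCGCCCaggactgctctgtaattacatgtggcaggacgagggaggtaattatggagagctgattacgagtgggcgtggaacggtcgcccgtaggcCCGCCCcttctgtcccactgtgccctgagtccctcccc

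Col11a1 measured 649, 734, 684 and 667 FPKM in vertebral GFP+ EMB- libraries and 1576, 1538, 1788 and 1653 in GFP+ EMB+ libraries. Col11a1 in GFP- vertebral cells gave 677, 624, 726 and 691 FPKM (EMB-) and 1802, 1545, 1665 and 1678 FPKM (EMB+). Col11a1 in long bone gave 897, 765, 988 and 815 FPKM (EMB-) and 1009, 1024, 1306 and 1299.8 FPKM (EMB+). In both vertebral comparisons every EMB+ library lay above every EMB- library, and long bone showed a smaller step in the same direction. The log2 change was 1.26 ± 0.12 (adjusted p = 3.84e-09) in GFP+ cells, a 2.40-fold difference of means, 1.30 ± 0.12 (adjusted p = 1.46e-09) in GFP- cells and 0.42 ± 0.12 (adjusted p = 0.00691) in long bone.

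Col11a2 stood at 747, 707, 776 and 717 FPKM in GFP+ EMB- and 1944, 2034, 2146 and 2008 FPKM in GFP+ EMB+ cells of the vertebra. Without GFP, Col11a2 stood at 739, 718, 803 and 807 FPKM (EMB-) and 1764, 1832, 1864 and 1822 FPKM (EMB+). In long bone, Col11a2 had 1051, 916, 1211 and 876 FPKM (EMB-) and 1377, 1323, 1538 and 1500.0 FPKM (EMB+). The vertebral groups were again fully apart, at 2.76-fold in GFP+ and 2.38-fold in GFP- cells. Its log2 changes were 1.46 ± 0.11 (adjusted p = 8.05e-11), 1.25 ± 0.11 (adjusted p = 8.98e-10) and, in long bone, 0.51 ± 0.11 (adjusted p = 0.00063).

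Col27a1 encodes a fibrillar chain of growth plate cartilage. Col27a1 levels were 26.1, 30.6, 39.8 and 46.0 FPKM in GFP+ EMB- and 118, 95.5, 155 and 145 FPKM in GFP+ EMB+ vertebral libraries. Col27a1 levels in GFP- vertebral cells were 20.04, 19.3, 34.3 and 30.8 FPKM (EMB-) and 144, 90.8, 138 and 138 FPKM (EMB+). Col27a1 levels in long bone were 35.4, 34.6, 49.7 and 88.4 FPKM (EMB-) and 51.2, 47.4, 79.2 and 74.6 FPKM (EMB+). Vertebral EMB+ libraries were all higher, and the long bone groups overlapped. Col27a1 had one of the largest rises of the family, 1.83 ± 0.26 (adjusted p = 3.04e-06) in GFP+ and 2.27 ± 0.26 (adjusted p = 9.17e-08) in GFP- cells, and 0.35 ± 0.26 (adjusted p = 0.32) in long bone did not pass. Col24a1, another minor fibrillar chain, reached at most 10.7 FPKM in a library and rose by 1.14 ± 0.18 (adjusted p = 1.82e-05) and 1.63 ± 0.18 (adjusted p = 7.25e-08) in the vertebral comparisons, against 0.15 ± 0.18 (adjusted p = 0.548) in long bone.

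Col2a1 measured 47911, 51026, 48071 and 48585 FPKM in vertebral GFP+ EMB- libraries and 37204, 38167, 39312 and 39443 in GFP+ EMB+ libraries. Col2a1 in GFP- vertebral cells gave 49286, 50784, 53492 and 54283 FPKM (EMB-) and 38632, 38054, 36833 and 38283 FPKM (EMB+). Col2a1 in long bone gave 27587, 25139.7, 33217 and 30807 FPKM (EMB-) and 25483, 21746, 32064 and 30574 FPKM (EMB+). Col2a1 went the other way from its partners, with all vertebral EMB+ libraries below all EMB- libraries. With the deposited values the decrease was small, -0.34 ± 0.13 (adjusted p = 0.0304) in GFP+ and -0.45 ± 0.13 (adjusted p = 0.00522) in GFP- cells. The long bone value -0.10 ± 0.13 (adjusted p = 0.603) did not pass. Median-ratio scaling changed member levels by median factors of 1.2 and 1.18 in GFP+ and GFP- EMB- cells. For EMB+ cells the factors were 0.912 and 0.887, so the size of the decrease depended on the scaling. Both vertebral calls were kept under it and when rescaled to genes other than collagen and hemoglobin. The GFP+ call was lost without GFP+ EMB- replicates 2, 3 or 4 or GFP+ EMB+ replicates 1 or 2 (adjusted p = 0.052 to 0.0722), and quantile normalization, which fixes the top gene at 1 value, took it to 0 in both vertebral comparisons. The ratio of Col11a1 to Col2a1 per library therefore went from 0.014 ± 0.000396 to 0.0425 ± 0.00217 in GFP+ and from 0.0131 ± 0.000687 to 0.0441 ± 0.00258 in GFP- cells, and from 0.0298 ± 0.00252 to 0.0425 ± 0.00329 in long bone.

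Chains of the fibril surface did not move together. Of the 7 tested FACIT chains, 4 rose and 2 fell in GFP+, 5 rose and 2 fell in GFP-, and 2 rose and 1 fell in long bone. Type IX collagen, which decorates cartilage fibrils, is built from Col9a1, Col9a2 and Col9a3, and all 3 rose in vertebral EMB+ cells. Col9a3 stood at 930.3, 920.5, 981 and 937 FPKM in GFP+ EMB- and 3058, 3002, 3184 and 3160.3 FPKM in GFP+ EMB+ cells of the vertebra. Without GFP, Col9a3 stood at 799, 795, 868 and 826 FPKM (EMB-) and 3402, 3216, 3194 and 3409 FPKM (EMB+). In long bone, Col9a3 had 1207, 923, 1395 and 1959.8 FPKM (EMB-) and 1956, 1585, 2358 and 2195 FPKM (EMB+). No vertebral EMB+ library came near the EMB- range. Col9a3 rose by 1.72 ± 0.16 (adjusted p = 3.31e-09) in GFP+, 2.01 ± 0.16 (adjusted p = 1.44e-10) in GFP- and 0.60 ± 0.16 (adjusted p = 0.00426) in long bone cells, 3.29-fold, 4.02-fold and 1.48-fold.

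Col9a2 levels were 1285, 1209, 1476 and 1329.9 FPKM in GFP+ EMB- and 2759.7, 3027, 3345 and 3312 FPKM in GFP+ EMB+ vertebral libraries. Col9a2 levels in GFP- vertebral cells were 1393, 1445, 1623 and 1590.0 FPKM (EMB-) and 2801, 3131, 3152 and 3149 FPKM (EMB+). Col9a2 levels in long bone were 1458, 1278, 1765 and 1847 FPKM (EMB-) and 2043, 1734, 2653 and 2480.0 FPKM (EMB+). Vertebral groups were separate and long bone groups overlapped. Its log2 changes were 1.23 ± 0.14 (adjusted p = 1.09e-07), 1.02 ± 0.14 (adjusted p = 1.55e-06) and 0.48 ± 0.14 (adjusted p = 0.00848).

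Col9a1 measured 1536, 1445, 1432 and 1402 FPKM in vertebral GFP+ EMB- libraries and 2419, 2386, 2309 and 2239.8 in GFP+ EMB+ libraries. Col9a1 in GFP- vertebral cells gave 1596, 1672, 1498 and 1484 FPKM (EMB-) and 2388, 2509, 2272 and 2325 FPKM (EMB+). Col9a1 in long bone gave 1346, 1108, 1600.2 and 1294 FPKM (EMB-) and 1421, 1318, 1894 and 1889 FPKM (EMB+). This chain moved least of the 3, by 0.69 ± 0.13 (adjusted p = 0.000104) and 0.60 ± 0.13 (adjusted p = 0.000347) in the vertebral comparisons, and 0.28 ± 0.13 (adjusted p = 0.0929) in long bone did not pass. Under median-ratio scaling its vertebral calls were lost (adjusted p = 0.0618 and 0.217). The RNA ratio of genes whose chains assemble together differed with EMB in vertebral cells, and protein was not measured. Col9a3 to Col9a1 was 0.649 ± 0.035 in EMB- and 1.33 ± 0.0783 in EMB+ libraries of GFP+ cells. The GFP- values were 0.528 ± 0.048 and 1.39 ± 0.0792. In long bone they were 1.029 ± 0.324 and 1.25 ± 0.0934, and the libraries overlapped.

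Col12a1, a FACIT chain of dense connective tissue and periosteum, rose in both vertebral comparisons. Col12a1 stood at 57.3, 85.8, 104 and 103 FPKM in GFP+ EMB- and 256, 223, 323 and 287 FPKM in GFP+ EMB+ cells of the vertebra. Without GFP, Col12a1 stood at 39.9, 34.2, 52.8 and 50.6 FPKM (EMB-) and 318, 223, 298 and 279.6 FPKM (EMB+). In long bone, Col12a1 had 180.4, 145, 244 and 299 FPKM (EMB-) and 164.2, 175.7, 243 and 255 FPKM (EMB+). Vertebral EMB+ libraries held 223 FPKM or more, and the long bone groups lay over each other. The changes were 1.65 ± 0.21 (adjusted p = 9.13e-07), 2.64 ± 0.21 (adjusted p = 2.92e-10) and -0.022 ± 0.21 (adjusted p = 0.951).

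Col14a1 fell in all 3 comparisons. It encodes a FACIT chain that binds fibrils of tendon and skin. Col14a1 levels were 40.1, 41.5, 46.3 and 42.4 FPKM in GFP+ EMB- and 4.90, 4.74, 5.51 and 6.46 FPKM in GFP+ EMB+ vertebral libraries. Col14a1 levels in GFP- vertebral cells were 30.6, 24.03, 30.9 and 28.2 FPKM (EMB-) and 7.51, 8.25, 11.3 and 18.1 FPKM (EMB+). Col14a1 levels in long bone were 54.9, 50.3, 51.3 and 46.8 FPKM (EMB-) and 22.1, 20.3, 32.8 and 35.6 FPKM (EMB+). Within each of the 3 pairs the groups did not overlap. Col14a1 fell by 7.87-fold in GFP+ cells, with log2 changes of -2.77 ± 0.19 (adjusted p = 1.72e-11), -1.33 ± 0.19 (adjusted p = 2.77e-06) and -0.89 ± 0.19 (adjusted p = 0.000614).

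Col22a1, a FACIT chain of tissue junctions such as muscle to tendon, rose in vertebral GFP- cells, by 1.54 ± 0.31 (adjusted p = 0.000187). Col22a1 measured 10.5, 22.5, 14.6 and 16.01 FPKM in vertebral GFP+ EMB- libraries and 18.4, 8.21, 17.5 and 21.4 in GFP+ EMB+ libraries. Col22a1 in GFP- vertebral cells gave 4.76, 6.75, 6.21 and 4.59 FPKM (EMB-) and 16.3, 14.2, 22.99 and 19.2 FPKM (EMB+). Col22a1 in long bone gave 82.1, 115, 58.4 and 51.5 FPKM (EMB-) and 116, 116, 45.8 and 48.7 FPKM (EMB+). The GFP+ groups overlapped, with 0.012 ± 0.31 (adjusted p = 0.976), as did the long bone groups, with 0.018 ± 0.31 (adjusted p = 0.974).

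Col16a1 stood at 351, 347, 384 and 340.5 FPKM in GFP+ EMB- and 275, 252, 279 and 301 FPKM in GFP+ EMB+ cells of the vertebra. Without GFP, Col16a1 stood at 324, 309, 345 and 374 FPKM (EMB-) and 244, 241, 263 and 289 FPKM (EMB+). In long bone, Col16a1 had 339, 336, 514 and 486 FPKM (EMB-) and 329, 293, 457 and 443 FPKM (EMB+). Col16a1, a minor fibril-associated chain, was slightly lower in vertebral EMB+ libraries. Its changes were -0.36 ± 0.15 (adjusted p = 0.0437), -0.38 ± 0.15 (adjusted p = 0.0338) and, in long bone, -0.14 ± 0.15 (adjusted p = 0.507). Neither vertebral call was firm, since it was lost without GFP+ EMB- replicates 1, 2, 3 or 4 or GFP+ EMB+ replicates 1, 2 or 3 (adjusted p = 0.0596 to 0.109) and, for GFP- cells, without GFP- EMB- replicates 3 or 4 or GFP- EMB+ replicates 1, 2 or 3 (adjusted p = 0.0544 to 0.0958).

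With the deposited values all 6 fibril chains of bone and connective tissue fell in GFP+ cells, 3 in GFP- cells and 2 in long bone. The others had no call there. Col3a1, the chain of type III collagen in pliable tissues, is shown with the 250 bases before its start because it fell in all 3 comparisons. This window is chr1:45311288-45311537 on the plus strand, from RefSeq on GRCm38.p6, with the same motifs in capitals and no annotated exon.
Col3a1: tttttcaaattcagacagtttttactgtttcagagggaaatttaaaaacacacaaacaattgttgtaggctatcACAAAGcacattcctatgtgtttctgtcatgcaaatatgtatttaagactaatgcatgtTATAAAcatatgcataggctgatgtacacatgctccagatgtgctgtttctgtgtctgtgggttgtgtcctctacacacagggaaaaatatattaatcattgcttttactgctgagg

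Col3a1 levels were 1124, 1117, 1148 and 862 FPKM in GFP+ EMB- and 244, 194, 228 and 249 FPKM in GFP+ EMB+ vertebral libraries. Col3a1 levels in GFP- vertebral cells were 983, 823, 736 and 767 FPKM (EMB-) and 192.4, 236, 281 and 329.5 FPKM (EMB+). Col3a1 levels in long bone were 1579, 1980.2, 1749 and 1059 FPKM (EMB-) and 587, 657, 797 and 824 FPKM (EMB+). In each pair every EMB+ library was lower than every EMB- library. Col3a1 fell 4.65-fold in GFP+, 3.19-fold in GFP- and 2.22-fold in long bone cells, with log2 changes of -2.21 ± 0.18 (adjusted p = 4.37e-10), -1.69 ± 0.18 (adjusted p = 3.04e-08) and -1.13 ± 0.18 (adjusted p = 2.02e-05).

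Col5a1 and Col5a2 encode type V collagen, which lies inside type I fibrils. Col5a1 measured 162.8, 170.5, 178 and 179 FPKM in vertebral GFP+ EMB- libraries and 55.9, 47.3, 59.5 and 59.3 in GFP+ EMB+ libraries. Col5a1 in GFP- vertebral cells gave 151, 144, 156 and 155 FPKM (EMB-) and 59.6, 53.0, 69.0 and 65.8 FPKM (EMB+). Col5a1 in long bone gave 208, 185.8, 187.1 and 219 FPKM (EMB-) and 196, 203, 141 and 139 FPKM (EMB+). Both vertebral pairs were far apart, and the long bone groups overlapped. Its changes were -1.63 ± 0.12 (adjusted p = 1.18e-10), -1.29 ± 0.12 (adjusted p = 4.91e-09) and -0.25 ± 0.12 (adjusted p = 0.117).

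Col5a2 stood at 291, 338, 315 and 296 FPKM in GFP+ EMB- and 98.9, 82.9, 111 and 106 FPKM in GFP+ EMB+ cells of the vertebra. Without GFP, Col5a2 stood at 251, 244, 261 and 246 FPKM (EMB-) and 85.9, 84.9, 112 and 106 FPKM (EMB+). In long bone, Col5a2 had 369.6, 345, 375 and 205 FPKM (EMB-) and 383, 391, 296 and 300.1 FPKM (EMB+). The pattern matched that of its partner chain, at -1.63 ± 0.16 (adjusted p = 7.56e-09), -1.37 ± 0.16 (adjusted p = 1.03e-07) and 0.11 ± 0.16 (adjusted p = 0.629). Col5a2 to Col5a1 stayed between 1.57 and 2.03 in group means.

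Col5a3 levels were 1.66, 1.91, 1.86 and 1.006 FPKM in GFP+ EMB- and 0.678, 0.447, 0.481 and 0.459 FPKM in GFP+ EMB+ vertebral libraries. Col5a3 levels in GFP- vertebral cells were 2.07, 2.49, 1.76 and 1.34 FPKM (EMB-) and 0.947, 1.42, 1.65 and 2.33 FPKM (EMB+). Col5a3 levels in long bone were 10.5, 20.8, 11.5 and 10.6 FPKM (EMB-) and 3.56, 5.57, 3.68 and 4.15 FPKM (EMB+). Col5a3, the third type V chain, was low outside long bone EMB- cells. It fell in long bone, at -1.41 ± 0.20 (adjusted p = 2.91e-06) and in GFP+ cells, at -0.77 ± 0.20 (adjusted p = 0.00234), and -0.19 ± 0.20 (adjusted p = 0.438) in GFP- cells did not pass. The GFP+ call was lost with a pseudocount of 5 (adjusted p = 0.0664).

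Type I collagen is made of Col1a1 and Col1a2. Col1a1 measured 5769.7, 5623, 6055 and 5791 FPKM in vertebral GFP+ EMB- libraries and 2869, 2069.7, 2221 and 2453 in GFP+ EMB+ libraries. Col1a1 in GFP- vertebral cells gave 3794, 3565, 3385 and 3282 FPKM (EMB-) and 2667, 2918, 3400.0 and 3139 FPKM (EMB+). Col1a1 in long bone gave 13187, 12227, 10093 and 7446 FPKM (EMB-) and 16583, 20029, 8437 and 8212 FPKM (EMB+). Col1a1 was 2.42-fold lower in GFP+ EMB+ libraries, -1.28 ± 0.22 (adjusted p = 3.98e-05). In GFP- cells the groups overlapped and the change was -0.21 ± 0.22 (adjusted p = 0.425); long bone EMB+ replicates 1 and 2 were far above replicates 3 and 4, and the long bone change was 0.23 ± 0.22 (adjusted p = 0.444).

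Col1a2 stood at 6436, 7242, 7281 and 6877 FPKM in GFP+ EMB- and 2848, 2053, 2684 and 2949 FPKM in GFP+ EMB+ cells of the vertebra. Without GFP, Col1a2 stood at 4472, 4298, 4669 and 4434 FPKM (EMB-) and 3046, 2846, 3806 and 3665 FPKM (EMB+). In long bone, Col1a2 had 12688, 11203, 9183 and 7784 FPKM (EMB-) and 15771, 16953, 8147 and 8424 FPKM (EMB+). Col1a2 followed it, with -1.41 ± 0.20 (adjusted p = 3.67e-06) in GFP+, -0.43 ± 0.20 (adjusted p = 0.0767) in GFP- and 0.21 ± 0.20 (adjusted p = 0.444) in long bone. With the replicate numbers as a block, the GFP- values passed for both chains (adjusted p = 0.0426 for Col1a1 and 0.000368 for Col1a2). Median-ratio scaling also brought both past the threshold in GFP- cells. For Col1a2 the GFP- value passed under the other scalings and with only the compared groups as well. In long bone both chains passed under quantile normalization. The ratio of Col1a2 to Col1a1 held between 0.947 and 1.28 in group means. Col1a1 to Col2a1 was 0.119 ± 0.00653 and 0.0625 ± 0.0103 in GFP+, 0.0677 ± 0.0074 and 0.08 ± 0.00977 in GFP-, and 0.377 ± 0.124 and 0.526 ± 0.32 in long bone EMB- and EMB+ cells.

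**Figure D4:**
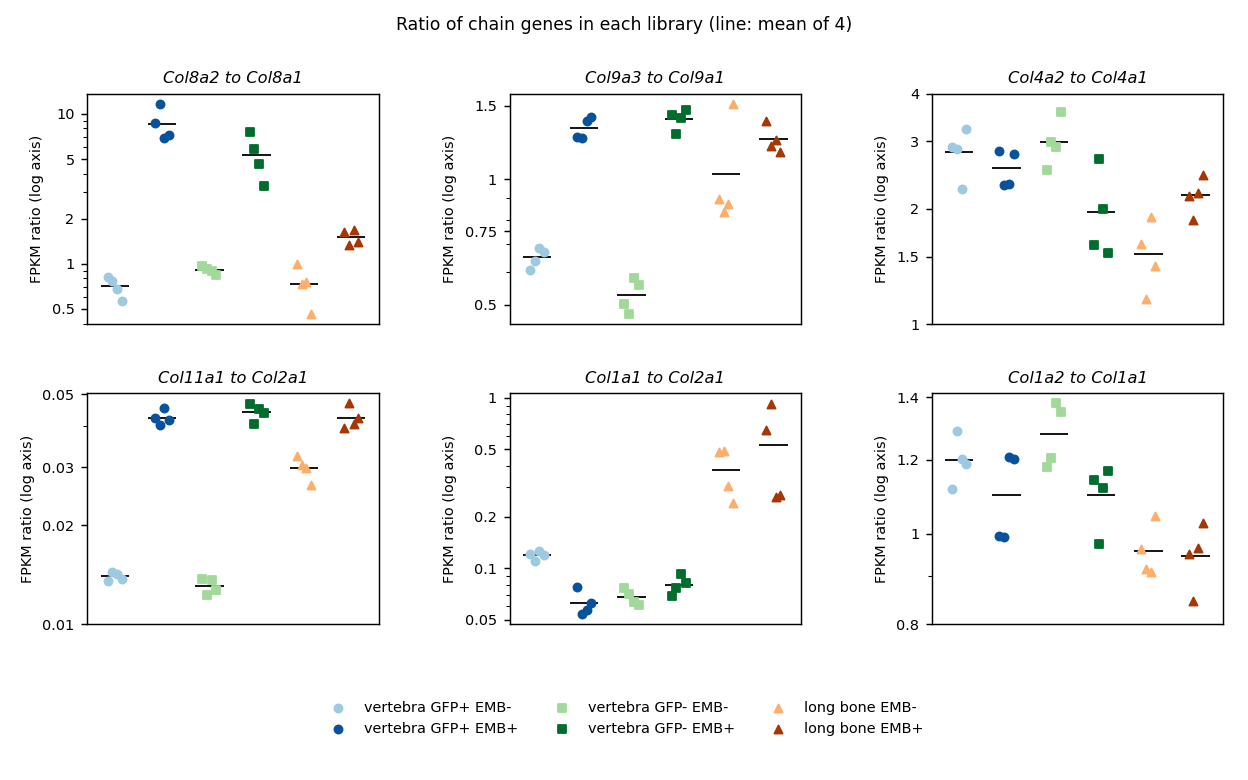
FPKM ratios of 6 pairs of chains (log axes that differ between panels); each point is a library of the 6 groups and each line the mean of 4. Col8a2 to Col8a1, Col9a3 to Col9a1 and Col11a1 to Col2a1 do not overlap between EMB+ and EMB- libraries in either vertebral pair, and group means of Col1a2 to Col1a1 lie between 0.947 and 1.28.

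Type IV chains, of basement membranes, fell. All 4 tested type IV chains fell in both vertebral comparisons, and Col4a1 and Col4a2 fell in long bone. Col4a1 and Col4a2 make the common type IV network and lie head to head, with entries that share 22 bases; the library kit does not mark the strand, so reads from that overlap cannot be told apart. Col4a1 levels were 19.8, 16.9, 24.6 and 15.9 FPKM in GFP+ EMB- and 4.61, 5.74, 6.09 and 5.41 FPKM in GFP+ EMB+ vertebral libraries. Col4a1 levels in GFP- vertebral cells were 25.3, 21.6, 23.1 and 18.0005 FPKM (EMB-) and 6.23, 3.63, 7.01 and 9.42 FPKM (EMB+). Col4a1 levels in long bone were 28.8, 55.4, 36.8 and 24.3 FPKM (EMB-) and 10.6, 12.8, 13.4 and 11.98 FPKM (EMB+). EMB+ libraries were lower in all 3 pairs without overlap. Its changes were -1.64 ± 0.21 (adjusted p = 8.19e-07), -1.65 ± 0.21 (adjusted p = 5.69e-07) and -1.44 ± 0.21 (adjusted p = 6.45e-06).

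Col4a2 measured 57.6, 48.5, 55.4 and 51.4 FPKM in vertebral GFP+ EMB- libraries and 13.1, 13.2, 14.2 and 15.02 in GFP+ EMB+ libraries. Col4a2 in GFP- vertebral cells gave 63.7, 64.7, 66.8 and 64.5 FPKM (EMB-) and 10.02, 9.81, 14.04 and 14.4 FPKM (EMB+). Col4a2 in long bone gave 46.7, 64.6, 70.1 and 34.5 FPKM (EMB-) and 22.96, 23.8, 29.5 and 29.4 FPKM (EMB+). Here too the groups were apart. Col4a2 changed by -1.86 ± 0.16 (adjusted p = 1.17e-09), -2.35 ± 0.16 (adjusted p = 1.06e-11) and -0.96 ± 0.16 (adjusted p = 3.82e-05). The X-linked pair Col4a5 and Col4a6, whose entries lie 1308 bases apart, was lower in level. Col4a5 stood at 7.56, 9.71, 8.55 and 7.71 FPKM in GFP+ EMB- and 3.42, 3.77, 3.28 and 3.57 FPKM in GFP+ EMB+ cells of the vertebra. Without GFP, Col4a5 stood at 9.76, 12.4, 8.29 and 9.80 FPKM (EMB-) and 3.21, 2.46, 2.83 and 3.08 FPKM (EMB+). In long bone, Col4a5 had 4.73, 4.56, 4.86 and 2.52 FPKM (EMB-) and 2.94, 3.79, 4.50 and 5.41 FPKM (EMB+). Col4a5 fell, at -1.05 ± 0.16 (adjusted p = 9.83e-06) and -1.499 ± 0.16 (adjusted p = 3.8e-08) in vertebra, with 0.0036 ± 0.16 (adjusted p = 0.989) in long bone, and Col4a6, at -1.02 ± 0.15 (adjusted p = 5.84e-06) and -0.88 ± 0.15 (adjusted p = 3.14e-05), with 0.16 ± 0.15 (adjusted p = 0.431).

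Col15a1, a chain of the basement membrane zone whose end can be cut off as restin, fell in vertebral cells. Col15a1 levels were 35.8, 34.4, 36.0 and 33.6 FPKM in GFP+ EMB- and 5.77, 6.76, 6.33 and 5.94 FPKM in GFP+ EMB+ vertebral libraries. Col15a1 levels in GFP- vertebral cells were 35.4, 36.8, 31.4 and 33.4 FPKM (EMB-) and 4.51, 4.78, 4.17 and 5.83 FPKM (EMB+). Col15a1 levels in long bone were 11.8, 11.5, 15.004 and 23.1 FPKM (EMB-) and 9.65, 10.98, 20.3 and 22.1 FPKM (EMB+). Vertebral EMB+ libraries held at most 6.76 FPKM, and the long bone groups overlapped. Its changes were -2.32 ± 0.20 (adjusted p = 1.18e-09), -2.60 ± 0.20 (adjusted p = 1.04e-10) and 0.0081 ± 0.20 (adjusted p = 0.981). Col18a1, the related source of endostatin, reached at most 8.45 FPKM; it rose in GFP+ cells by 0.73 ± 0.23 (adjusted p = 0.00972), a call lost under quantile normalization and median-ratio scaling (adjusted p = 0.072 and 0.11). It fell in long bone, at -1.13 ± 0.23 (adjusted p = 0.000326), and the GFP- value was 0.42 ± 0.23 (adjusted p = 0.124).

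Type VIII collagen, which forms hexagonal lattices, includes Col8a1, the tested member with the largest log2 change with EMB in any of the 3 comparisons. Col8a1 fell 9.98-fold in GFP+, 5.11-fold in GFP- and 2.63-fold in long bone EMB+ cells. The 250 bases before its start, chr16:57754738-57754987 on the minus strand (RefSeq, GRCm38.p6), are shown for this reason, with the same motifs in capitals and no annotated exon.
Col8a1: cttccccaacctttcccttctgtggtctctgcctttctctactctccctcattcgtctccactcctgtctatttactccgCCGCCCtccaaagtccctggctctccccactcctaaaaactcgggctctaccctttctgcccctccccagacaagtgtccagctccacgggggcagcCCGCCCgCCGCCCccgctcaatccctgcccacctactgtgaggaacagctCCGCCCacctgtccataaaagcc

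Col8a1 measured 72.2, 67.1, 80.1 and 79.5 FPKM in vertebral GFP+ EMB- libraries and 7.50, 5.81, 8.30 and 8.35 in GFP+ EMB+ libraries. Col8a1 in GFP- vertebral cells gave 51.1, 48.1, 47.5 and 46.4 FPKM (EMB-) and 6.85, 9.11, 9.73 and 12.1 FPKM (EMB+). Col8a1 in long bone gave 53.0, 54.3, 86.5 and 74.2 FPKM (EMB-) and 21.998, 22.4, 29.8 and 27.6 FPKM (EMB+). No EMB+ library reached the EMB- range in its own pair. The log2 changes were -3.16 ± 0.16 (adjusted p = 3.32e-14), -2.26 ± 0.16 (adjusted p = 1.26e-11) and -1.34 ± 0.16 (adjusted p = 1.78e-07).

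Col8a2 stood at 59.4, 51.7, 54.1 and 44.8 FPKM in GFP+ EMB- and 65.1, 67.6, 57.6 and 60.5 FPKM in GFP+ EMB+ cells of the vertebra. Without GFP, Col8a2 stood at 49.6, 44.3, 42.7 and 39.3 FPKM (EMB-) and 52.3, 52.8, 45.2 and 40.3 FPKM (EMB+). In long bone, Col8a2 had 53.1, 39.8, 65.1 and 34.5 FPKM (EMB-) and 36.1, 29.7, 49.9 and 38.4 FPKM (EMB+). Its partner Col8a2 passed in none of the 3 comparisons, with 0.26 ± 0.16 (adjusted p = 0.188), 0.11 ± 0.16 (adjusted p = 0.585) and -0.30 ± 0.16 (adjusted p = 0.163). With the replicate block its GFP+ value passed (adjusted p = 0.00248), as it did with only the compared groups. Col8a2 to Col8a1 went from 0.708 ± 0.114 to 8.62 ± 2.14 in GFP+, from 0.909 ± 0.0522 to 5.35 ± 1.82 in GFP-, and from 0.738 ± 0.219 to 1.51 ± 0.175 in long bone cells.

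Over all RefSeq windows of this length, 12.4% hold the TATA box letters, 33.8% the CCAAT box, 32.7% the GC box and 16.5% the SOX core on either strand. Among 37 windows of the 34 matched members, 4, 13, 22 and 3 did. These matches are letters only.

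The beaded filament chains Col6a1, Col6a2 and Col6a3 were abundant. With the deposited values they had log2 changes with EMB between -0.32 and 0.23. Col6a1 levels were 839.7, 763, 796 and 723 FPKM in GFP+ EMB- and 829.9, 899, 785 and 753 FPKM in GFP+ EMB+ vertebral libraries. Col6a1 levels in GFP- vertebral cells were 842, 873, 815 and 741 FPKM (EMB-) and 748, 769.8, 781 and 719 FPKM (EMB+). Col6a1 levels in long bone were 414, 388, 493 and 304 FPKM (EMB-) and 349, 306, 394 and 414 FPKM (EMB+). The EMB groups overlapped in all 3 pairs. Its changes were 0.065 ± 0.13 (adjusted p = 0.692), -0.11 ± 0.13 (adjusted p = 0.463) and -0.12 ± 0.13 (adjusted p = 0.51), and none passed. With the replicate number as a block the GFP- value did (adjusted p = 0.0476), as it did under median-ratio scaling.

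Col6a2 measured 806, 807, 855 and 843 FPKM in vertebral GFP+ EMB- libraries and 687, 680.4, 711 and 669.7 in GFP+ EMB+ libraries. Col6a2 in GFP- vertebral cells gave 789, 812, 862 and 825 FPKM (EMB-) and 693, 615, 691 and 634 FPKM (EMB+). Col6a2 in long bone gave 477, 424, 537 and 378 FPKM (EMB-) and 350.0, 293, 421 and 413 FPKM (EMB+). Of the Col6a2 changes only that in GFP- cells passed, -0.32 ± 0.12 (adjusted p = 0.0263), against -0.27 ± 0.12 (adjusted p = 0.0626) and -0.30 ± 0.12 (adjusted p = 0.053). The GFP+ value passed with the block (adjusted p = 4.87e-05), with only the compared groups and under each of the other scalings. In long bone the value passed under median-ratio scaling, without a filter and with the filter of 5 FPKM. The GFP- call was lost without GFP- EMB- replicate 3 or GFP- EMB+ replicates 2 or 4 (adjusted p = 0.0594 to 0.0686).

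Col6a3 stood at 217, 207, 198 and 182 FPKM in GFP+ EMB- and 265, 283, 219.6 and 188.2 FPKM in GFP+ EMB+ cells of the vertebra. Without GFP, Col6a3 stood at 282, 268, 216 and 201 FPKM (EMB-) and 193, 236, 180.4 and 170.4 FPKM (EMB+). In long bone, Col6a3 had 81.6, 89.3, 113 and 59.3 FPKM (EMB-) and 63.3, 87.9, 105.1 and 111 FPKM (EMB+). In the main fit no change passed for Col6a3, at 0.23 ± 0.18 (adjusted p = 0.298), -0.30 ± 0.18 (adjusted p = 0.165) and 0.10 ± 0.18 (adjusted p = 0.699). The block brought both vertebral values past the threshold, in opposite directions (adjusted p = 0.00569 and 0.000639). The fall in GFP- cells also passed with only the compared groups and under each of the other scalings. Col6a6, an added type VI chain, measured 4.39, 7.16, 5.06 and 3.07 FPKM in long bone EMB- libraries and 0.158, 0.711, 0.311 and 1.47 in EMB+ libraries, a change of -1.85 ± 0.19 (adjusted p = 2.56e-08). In vertebral libraries it reached at most 0.723 FPKM.

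Transmembrane chains sit in the cell surface and are shed from it. Of the 3 tested, 1 rose in GFP+, 2 in GFP- and 1 in long bone cells. Col13a1 levels were 3.37, 5.97, 4.37 and 5.85 FPKM in GFP+ EMB- and 6.16, 4.20, 7.004 and 6.81 FPKM in GFP+ EMB+ vertebral libraries. Col13a1 levels in GFP- vertebral cells were 1.54, 1.90, 1.35 and 1.70 FPKM (EMB-) and 7.32, 4.93, 9.13 and 6.84 FPKM (EMB+). Col13a1 levels in long bone were 16.8, 14.2, 6.59 and 10.3 FPKM (EMB-) and 32.6, 35.9, 17.9 and 15.4 FPKM (EMB+). Col13a1, found at cell contacts with matrix and at the nerve to muscle junction, rose by 1.60 ± 0.25 (adjusted p = 1.22e-05) in GFP- and 1.012 ± 0.25 (adjusted p = 0.00295) in long bone cells, and 0.26 ± 0.25 (adjusted p = 0.396) in GFP+ cells did not pass.

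Col25a1 measured 3.67, 3.82, 3.33 and 1.88 FPKM in vertebral GFP+ EMB- libraries and 8.78, 9.85, 7.89 and 7.51 in GFP+ EMB+ libraries. Col25a1 in GFP- vertebral cells gave 2.15, 2.71, 2.23 and 1.80 FPKM (EMB-) and 11.1, 12.9, 9.32 and 9.57 FPKM (EMB+). Col25a1 in long bone gave 7.47, 5.26, 7.67 and 3.49 FPKM (EMB-) and 5.51, 6.68, 6.21 and 6.84 FPKM (EMB+). Col25a1, known from motor nerve growth, rose in both vertebral comparisons, by 1.21 ± 0.18 (adjusted p = 7.58e-06) and 1.86 ± 0.18 (adjusted p = 7.43e-09), with 0.11 ± 0.18 (adjusted p = 0.672) in long bone. Col26a1 was below 10 FPKM in every library and rose in all 3, by 1.70 ± 0.25 (adjusted p = 5.13e-06), 2.03 ± 0.25 (adjusted p = 2.88e-07) and 1.17 ± 0.25 (adjusted p = 0.000628). Col17a1, the hemidesmosome chain of skin, stayed at or under 1.504 FPKM and passed in none (-0.11, 0.31 and 0.12), although its GFP- value did with the replicate block (adjusted p = 0.0408).

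In long bone the calls rested partly on the spread shared over all groups. With only the compared libraries in the fit 9 members passed, 1 higher and 8 lower. The rises of Col9a2, Col9a3, Col11a1, Col11a2 and Col13a1 were then lost (adjusted p = 0.161, 0.141, 0.162, 0.0876 and 0.0569). Without EMB- replicate 4, 17 members passed, 7 higher and 10 lower.

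Markers of other cell types moved with EMB. Summed over 8 genes per library, tendon and ligament markers came to 4699.8 ± 208 FPKM without EMB and 2278 ± 88.9 with it in GFP+ cells, 4285 ± 368 and 2029 ± 166.2 in GFP- cells, and 2930.2 ± 500.1 and 2226 ± 486 in long bone, with 8, 8 and 5 of 8 lower in EMB+. Chondrocyte markers went from 9781 ± 257 to 17553 ± 1633, from 9132 ± 774 to 16823 ± 1163 and from 5469.8 ± 1089.6 to 6620.0 ± 1135 FPKM, with 8, 7 and 5 of 8 tested genes higher. Osteoblast markers were higher for 5, 9 and 5 of 10 genes, and fibroblast and periosteum markers lower for 7, 7 and 5 of 10. Of all genes, 42.1%, 41.7% and 17.5% were higher and 7.85%, 10.6% and 16% lower. The osteoblast count in GFP+ cells was thus near the share of all genes. Mean osteoblast sums went from 2326 to 4104, from 1264 to 4675 and from 6908 to 10518 FPKM. Mean fibroblast and periosteum sums went from 1548 to 1038 and from 1291 to 1079 FPKM in vertebral cells. In long bone that mean rose from 1292 to 1479 FPKM, with overlapping libraries, although 5 of its genes were lower. Erythroid markers fell for 8 of 8 in vertebral GFP- and in long bone cells, from 9927 ± 2163 to 393 ± 182 and from 34633 ± 10392 to 425 ± 124 FPKM. Leukocyte markers rose for 5 of 6 in GFP- cells, with summed levels of 131 to 539.7 FPKM in EMB- and 413 to 3087 in EMB+ libraries, and notochord markers for 5 of 5, from 28.8 to 48.2 to 85.1 to 137. Skeletal muscle markers summed to 353 to 829.7 FPKM in long bone EMB- and 54.4 to 60.6 in EMB+ libraries, and Schwann cell markers to 12.2 to 104 and 1.94 to 4.67. Endothelial markers summed to at most 10.5 FPKM and pericyte and smooth muscle markers to 6.27 to 62.0 FPKM in any library. The part of these markers in the collagen changes was not tested.

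Vertebral and long bone cells were compared at equal EMB, with the same groups as above and so not independently of them. Among EMB+ cells, 11 members were higher and 16 lower in vertebral GFP- than in long bone cells, against 8.49% and 10.6% of all genes. Vertebral GFP+ cells gave 11 and 15, against 8.66% and 12.9%. Among EMB- cells 7 were higher and 20 lower in GFP- vertebral cells, where 8.05% and 40.2% of all genes were, and 7 and 16 in GFP+ cells, where 7.4% and 40.4% were. In the same order, the groups did not overlap for 27, 26, 26 and 20 of the 34 members, against 24.8%, 28.1%, 35.3% and 36.8% of all genes. Medians of all genes were 0.010 and -0.015 among EMB+ and -0.281 and -0.271 among EMB- cells, and those of the members were -0.369, -0.377, -0.414 and -0.293. With the deposited values the share of members was above that of all genes in each direction in all 4 comparisons, and nearest to it for the lower members of GFP+ EMB- cells.

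**Figure D5:**
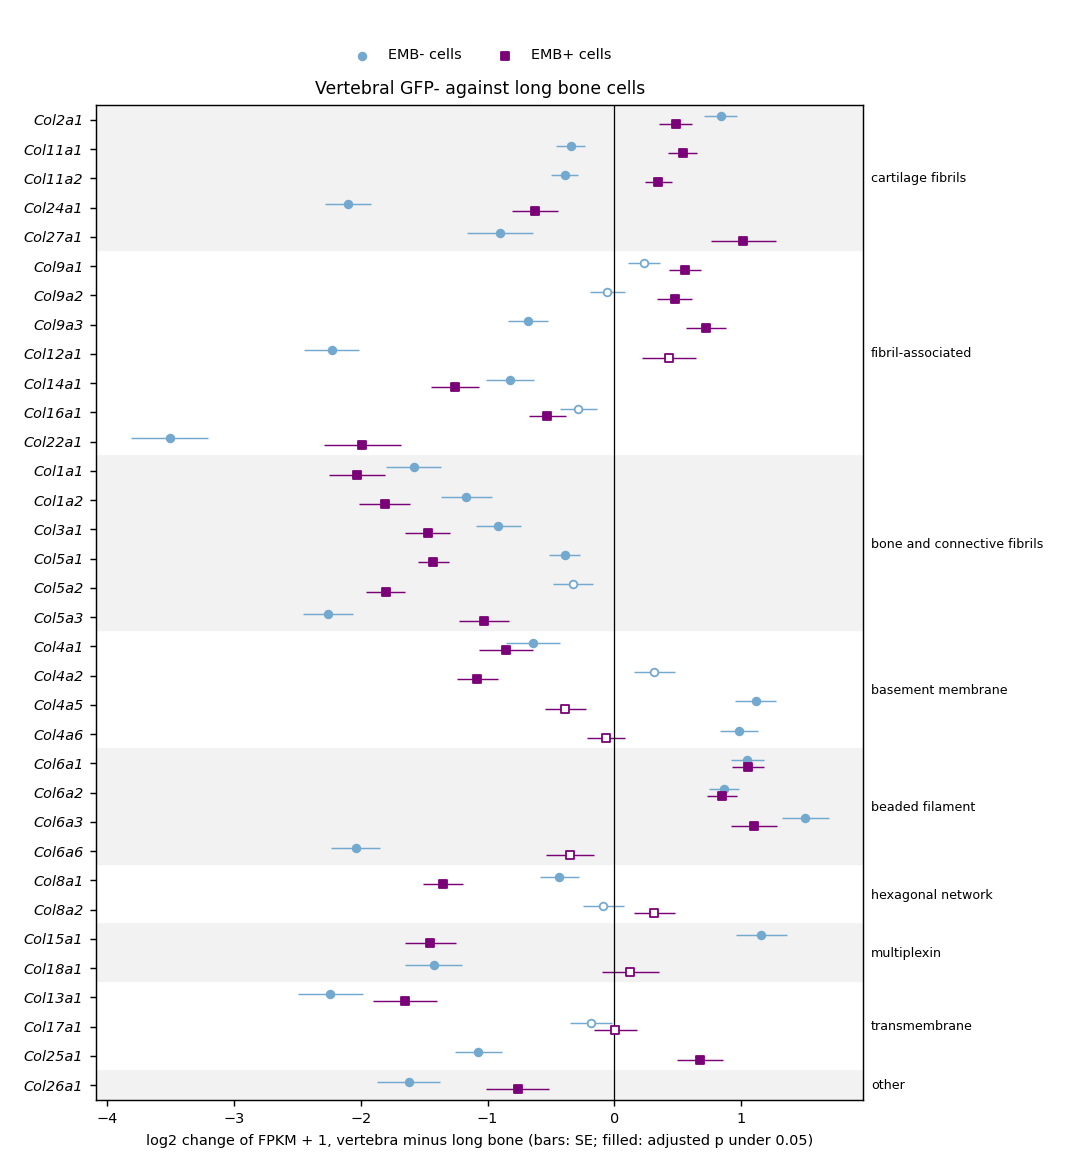
Log2 difference of FPKM + 1, vertebral GFP- minus long bone, for each tested collagen chain by class, with circles for EMB- and squares for EMB+ cells; bars are standard errors and filled points passed an adjusted p of 0.05. Col2a1 and the type VI chains Col6a1, Col6a2 and Col6a3 lie right of 0, and Col1a1, Col22a1 and Col13a1 left of 0, in both.

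Col6a1, Col6a2, Col6a3 and Col2a1 were higher in vertebral cells in all 4 comparisons. Every vertebral library exceeded every long bone library for Col6a1, Col6a2 and Col6a3, in the values given above. Col6a1 was higher by 1.05 ± 0.13 (adjusted p = 8.4e-07) and 1.16 ± 0.13 (adjusted p = 1.23e-07) among EMB+ and by 1.05 ± 0.13 (adjusted p = 3.48e-07) and 0.98 ± 0.13 (adjusted p = 5.83e-07) among EMB- cells, GFP- before GFP+. Col6a2 gave 0.85 ± 0.12 (adjusted p = 6.99e-06), 0.91 ± 0.12 (adjusted p = 1.76e-06), 0.87 ± 0.12 (adjusted p = 2.14e-06) and 0.88 ± 0.12 (adjusted p = 1.15e-06), and Col6a3 1.10 ± 0.18 (adjusted p = 6.62e-05), 1.38 ± 0.18 (adjusted p = 2.1e-06), 1.51 ± 0.18 (adjusted p = 3.45e-07) and 1.25 ± 0.18 (adjusted p = 3.34e-06). These 3 chains kept their calls under all alternatives run. Col2a1, also higher in every vertebral library, differed by 0.48 ± 0.13 (adjusted p = 0.00813), 0.50 ± 0.13 (adjusted p = 0.00517), 0.84 ± 0.13 (adjusted p = 1.02e-05) and 0.75 ± 0.13 (adjusted p = 3.21e-05); its calls were lost under quantile normalization alone.

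Of the 6 bone and connective tissue fibril chains, all were lower in vertebral cells in both EMB+ comparisons. Among EMB- cells 5 were lower for GFP- and 4 for GFP+ cells, and the others had no call. The Col5a1 call for GFP- EMB- cells was lost under each of the other scalings, with only the compared groups and with the replicate block. Quantile normalization also lost the Col1a2 call for those cells. The Col3a1 call for GFP+ EMB- cells was lost under each of the other scalings and with only the compared groups. It was lost too without GFP+ EMB- replicate 4 or long bone EMB- replicate 2. Col1a1 was lower, at -2.03 ± 0.22 (adjusted p = 1.48e-07) and -2.37 ± 0.22 (adjusted p = 7.7e-09), Col1a2, at -1.81 ± 0.20 (adjusted p = 2.48e-07) and -2.16 ± 0.20 (adjusted p = 9.37e-09), and Col5a2, at -1.80 ± 0.16 (adjusted p = 3.34e-09) and -1.77 ± 0.16 (adjusted p = 3.98e-09). Among EMB- cells Col1a1 gave -1.58 ± 0.22 (adjusted p = 2.48e-06) for GFP- and -0.85 ± 0.22 (adjusted p = 0.00233) for GFP+ cells. The Col1a2 value for GFP+ EMB- cells, -0.53 ± 0.20 (adjusted p = 0.0329), turned to 0.62 under quantile normalization (adjusted p = 0.00453), Col1a1 to 0.13 (adjusted p = 0.715), and both calls were lost under median-ratio scaling. Col1a2 lost its call also when rescaled to other genes, with only the compared groups and with the replicate block. The same held without GFP+ EMB- replicates 1, 2 or 4 or long bone EMB- replicates 1 or 2 (adjusted p = 0.0502 to 0.118). Col5a3 was lower, at -2.26 ± 0.20 (adjusted p = 1.33e-09) and -2.42 ± 0.20 (adjusted p = 1.87e-10) among EMB- cells.

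The largest site difference was in Col22a1, at -3.51 ± 0.31 (adjusted p = 1.41e-09) for GFP- EMB- cells, 13.8-fold lower than long bone. Its other values were -2.18 ± 0.31 (adjusted p = 1.97e-06) for GFP+ EMB- and -1.99 ± 0.31 (adjusted p = 2.38e-05) and -2.18 ± 0.31 (adjusted p = 4.88e-06) for GFP- and GFP+ EMB+ cells. Col13a1 was lower, at -2.24 ± 0.25 (adjusted p = 1.21e-07), -1.09 ± 0.25 (adjusted p = 0.000904), -1.65 ± 0.25 (adjusted p = 2.25e-05) and -1.84 ± 0.25 (adjusted p = 3.72e-06) in the same order. Col14a1 was lower among EMB+ cells, at -1.26 ± 0.19 (adjusted p = 1.71e-05) and -2.13 ± 0.19 (adjusted p = 3.76e-09), and Col8a1, at -1.35 ± 0.16 (adjusted p = 4.07e-07) and -1.64 ± 0.16 (adjusted p = 1.2e-08).

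With the deposited values several chains differed by site in opposite directions in EMB- and EMB+ cells. Col15a1 was higher in vertebral EMB- cells, by 1.16 ± 0.20 (adjusted p = 4.05e-05) and 1.19 ± 0.20 (adjusted p = 2.35e-05), and lower in vertebral EMB+ cells, at -1.45 ± 0.20 (adjusted p = 5.14e-06) and -1.14 ± 0.20 (adjusted p = 0.000102). Col27a1 was higher among EMB+ cells, 1.02 ± 0.26 (adjusted p = 0.00517) and 1.02 ± 0.26 (adjusted p = 0.00446), and lower among EMB- cells, -0.90 ± 0.26 (adjusted p = 0.0055), with -0.46 ± 0.26 (adjusted p = 0.148) for GFP+ not passing. Col9a3 gave 0.72 ± 0.16 (adjusted p = 0.00126) and 0.63 ± 0.16 (adjusted p = 0.00391) among EMB+ and -0.68 ± 0.16 (adjusted p = 0.000854) and -0.49 ± 0.16 (adjusted p = 0.0123) among EMB- cells. Col11a1 gave 0.54 ± 0.12 (adjusted p = 0.0012) and 0.51 ± 0.12 (adjusted p = 0.00181), then -0.35 ± 0.12 (adjusted p = 0.0161) and -0.34 ± 0.12 (adjusted p = 0.0191), and Col11a2 0.35 ± 0.11 (adjusted p = 0.0237) and 0.50 ± 0.11 (adjusted p = 0.000986), then -0.39 ± 0.11 (adjusted p = 0.00418) and -0.45 ± 0.11 (adjusted p = 0.00131). The 4 lower values of Col11a1 and Col11a2 among EMB- cells were lost under each of the 3 other scalings, and Col9a3 likewise for GFP+ cells. All of these were also lost with only the compared groups and with the replicate block. The higher value of Col11a2 for GFP- EMB+ cells was also lost under each of the 3 other scalings. It was lost too without GFP- EMB+ replicates 2, 3 or 4 or long bone EMB+ replicates 1 or 2. Quantile normalization lost the higher values of Col11a1, Col11a2 and Col9a3 for GFP+ EMB+ cells, and the lower value of Col27a1. Col25a1 was lower among EMB- cells, -1.07 ± 0.18 (adjusted p = 3.5e-05) and -0.72 ± 0.18 (adjusted p = 0.00203), and higher for GFP- EMB+ cells, 0.68 ± 0.18 (adjusted p = 0.00858). Its higher value was lost when rescaled to genes other than collagen and hemoglobin. Quantile normalization and median-ratio scaling lost its lower value for GFP+ cells.

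Further chains differed by site among EMB- cells. Col12a1 was lower in vertebra, at -2.23 ± 0.21 (adjusted p = 7.82e-09) and -1.28 ± 0.21 (adjusted p = 2.17e-05), Col18a1, at -1.43 ± 0.23 (adjusted p = 1.48e-05) and -1.95 ± 0.23 (adjusted p = 9.74e-08), and Col6a6, at -2.04 ± 0.19 (adjusted p = 5.03e-09) and -1.83 ± 0.19 (adjusted p = 1.66e-08). Col24a1 was lower, at -2.100 ± 0.18 (adjusted p = 1.33e-09) and -1.51 ± 0.18 (adjusted p = 1.92e-07) among EMB- cells. Col4a5 was higher by 1.12 ± 0.16 (adjusted p = 4.44e-06) and 0.88 ± 0.16 (adjusted p = 6.79e-05) and Col4a6 by 0.98 ± 0.15 (adjusted p = 9.78e-06) and 0.88 ± 0.15 (adjusted p = 2.96e-05), whereas Col4a1 was lower, at -0.64 ± 0.21 (adjusted p = 0.0144) and -0.83 ± 0.21 (adjusted p = 0.00211). The Col4a1 calls were lost under quantile normalization (adjusted p = 0.282 for GFP- and 0.103 for GFP+) and median-ratio scaling (0.204 and 0.0554). The GFP- call was also lost when rescaled to other genes, with only the compared groups, and without GFP- EMB- replicate 4 or long bone EMB- replicate 2 (adjusted p = 0.0527 to 0.0871).

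The split of higher and lower members moved with the scaling. Among EMB+ cells quantile normalization gave 7 higher and 16 lower for GFP- and 6 and 13 for GFP+ cells. All genes then gave 9.18% and 10.6% for GFP-, and 11.3% and 11.1% for GFP+ cells. Among EMB- cells quantile normalization gave 7 and 12 members for GFP-, and 11 and 7 for GFP+ cells. These were 20.6% and 35.3% of members for GFP-, against 21.1% and 19.6% of all genes, and 32.4% and 20.6% for GFP+ cells, against 27.1% and 18.4%, so the higher members of GFP- cells were then at the share of all genes. Median-ratio scaling gave 9 and 15, and 10 and 8, for those EMB- comparisons, and rescaling to genes other than collagen and hemoglobin gave 9 and 15, and 9 and 11. Over all genes, median-ratio scaling left 15.9% higher and 22.6% lower for GFP- and 17.1% and 23.8% for GFP+ EMB- cells. The share of lower members for GFP+ EMB- cells, 23.5%, was then at that of all genes. Rescaling to other genes left 12% of all genes higher and 24.9% lower for GFP-, and 12.3% and 27.1% for GFP+ EMB- cells. Without long bone EMB- replicate 4 the member counts were 7 and 20 for GFP- and 7 and 16 for GFP+ EMB- cells. Long bone EMB- cells also held the most erythroid RNA, whose part was not tested.

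GFP+ and GFP- vertebral cells were compared at equal EMB, and the number of chains called depended on whether the replicate number was a block. Without it, among EMB+ cells 0 members were higher and 2 lower in GFP+ cells, against 0.391% and 1.71% of all genes; the lower members were Col14a1, -0.87 ± 0.19 (adjusted p = 0.00792), and Col5a3, -0.75 ± 0.20 (adjusted p = 0.0413). Col14a1 lost its call when the fit held those 8 libraries alone (adjusted p = 0.0609). Col5a3 lost its call in 7 of 8 fits without a library, without GFP+ EMB+ replicates 1, 2, 3 or 4 or GFP- EMB+ replicates 2, 3 or 4 (adjusted p = 0.0632 to 0.206). Among EMB- cells 7 were higher and 0 lower, against 2.25% and 6.22%, so the higher share was well above that of all genes. The groups did not overlap for 6 members among EMB+ and 11 among EMB- cells, against 8.29% and 16.8% of all genes. The medians were -0.035 and 0.131 for members and -0.024 and -0.019 for all genes.

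With the replicate number as a block, 8 members passed among EMB+ cells, 4 in each direction, where 2.3% of all genes were higher and 4.56% lower. The block added Col8a2, Col15a1, Col6a3 and Col11a2 as higher and Col1a1 and Col1a2 as lower, with log2 differences of at most 0.39 in size. Among EMB- cells 17 passed with the block, 14 higher and 3 lower, against 6.73% and 11.8% of all genes. The added higher chains were Col14a1, Col27a1, Col25a1, Col5a2, Col8a2, Col9a3 and Col5a1, and the lower ones were Col4a2, Col6a3 and Col9a2. Col14a1 was the most different of these, at 0.57 (adjusted p = 0.0101).

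Col22a1 was higher in GFP+ EMB- cells by 1.33 ± 0.31 (adjusted p = 0.00435), Col13a1 by 1.15 ± 0.25 (adjusted p = 0.00299), Col12a1 by 0.95 ± 0.21 (adjusted p = 0.00376) and Col8a1 by 0.62 ± 0.16 (adjusted p = 0.00992). Every GFP+ library of these 4 lay above every GFP- library. Col1a1, at 0.73 ± 0.22 (adjusted p = 0.0356), and Col1a2, at 0.64 ± 0.20 (adjusted p = 0.0488), lost their calls without any 1 of the 8 libraries (adjusted p = 0.0531 to 0.0917 and 0.0696 to 0.121). Col24a1, at 0.59 ± 0.18 (adjusted p = 0.0423), lost its call without GFP+ EMB- replicates 2, 3 or 4 or GFP- EMB- replicates 1 or 4 (adjusted p = 0.108 to 0.18). In EMB- cells osteoblast markers were also higher in GFP+ libraries, for 7 of 10 genes and with summed levels of 2067 to 2508 against 966 to 1479 FPKM, and fibroblast and periosteum markers for 5 of 10, with 1411 to 1659 against 1143 to 1539 FPKM. Erythroid markers were lower for 8 of 8, Schwann cell markers for 4 of 5, with 0.607 to 10.02 against 11.04 to 129 FPKM, and notochord markers for 4 of 5, with 4.67 to 7.48 against 28.8 to 48.2 FPKM. In EMB+ cells leukocyte markers were lower for 4 of 6 and notochord markers for 4 of 5. Of all genes, 2.25% were higher and 6.22% lower in GFP+ EMB- cells, and 1.71% lower in GFP+ EMB+ cells. The part of these markers was not tested.

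The EMB difference itself was then compared between populations, in the same fit. Between GFP+ and GFP- vertebral cells it differed for 6 members, all lower in GFP+, against 1.67% of all genes; 0 were higher, against 3.2%. Col14a1 fell further in GFP+ cells, at -1.45 ± 0.27 (adjusted p = 0.000828), and so did Col8a1, at -0.90 ± 0.22 (adjusted p = 0.012); both calls held in every fit run. Col22a1, -1.52 ± 0.43 (adjusted p = 0.0386), Col13a1, -1.33 ± 0.36 (adjusted p = 0.0261), Col1a1, -1.07 ± 0.31 (adjusted p = 0.0442), and Col1a2, -0.98 ± 0.29 (adjusted p = 0.0442), were lost without some libraries, Col22a1 in 10, Col13a1 in 5, Col1a1 in 14 and Col1a2 in 14 of 16 fits, and all 4 with a pseudocount of 5. With the replicate block 14 members passed, 4 higher and 10 lower, against 8.25% and 7.47% of all genes.

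Between vertebral GFP- and long bone cells the EMB difference was higher for 12 members and lower for 7, against 24.7% and 5.07% of all genes. Higher values were led by Col12a1, 2.66 ± 0.30 (adjusted p = 4.56e-07), Col27a1, 1.92 ± 0.36 (adjusted p = 0.000316), Col25a1, 1.75 ± 0.26 (adjusted p = 1.82e-05), Col6a6, 1.69 ± 0.27 (adjusted p = 4.79e-05), and Col18a1, 1.55 ± 0.32 (adjusted p = 0.000733); Col6a6 and Col18a1 fell in long bone. Lower values were led by Col15a1, -2.61 ± 0.28 (adjusted p = 2.15e-07), Col4a5, -1.503 ± 0.23 (adjusted p = 2.62e-05), Col5a2, -1.48 ± 0.22 (adjusted p = 2.26e-05), Col4a2, -1.39 ± 0.23 (adjusted p = 5.85e-05), and Col4a6, -1.05 ± 0.21 (adjusted p = 0.000647). Under quantile normalization 9 were higher and 10 lower, under median-ratio scaling 9 and 11, and rescaled to other genes 9 and 10. These were 26.5% and 29.4%, 26.5% and 32.4%, and 26.5% and 29.4% of members. All genes gave 10.4% and 10.6%, 10.5% and 8.84%, and 11.2% and 7.26%, so both shares of members were above those of all genes. Without long bone EMB- replicate 4 the member counts were 13 and 7.

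Genes that act on collagen were counted from a list of 58, of which 50 passed the filter: enzymes that modify, cut and crosslink the chains, chaperones and export proteins, collagen receptors and transcription factors known to act on collagen genes. With EMB, 25 rose and 6 fell in GFP+, 27 and 7 in GFP-, and 29 and 2 in long bone cells. These were 50% and 12%, 54% and 14%, and 58% and 4% of those tested, against 42.1% and 7.85%, 41.7% and 10.6%, and 17.5% and 16% of all genes, so the vertebral shares were not far from the background and the long bone share of higher genes was above it. Under median-ratio scaling they became 20% and 32% in GFP+, 30% and 24% in GFP-, and 44% and 4% in long bone cells, against 12.9% and 14.7%, 15.3% and 19.7%, and 12.2% and 18.3% of all genes. In GFP+ cells the smallest adjusted p belonged to Loxl4, a crosslinking oxidase, at 2.91 ± 0.22 (adjusted p = 1.67e-10), the bone transcription factors Runx2, 1.99 ± 0.17 (adjusted p = 1.07e-09), and Sp7, 2.02 ± 0.20 (adjusted p = 1.05e-08), and the transglutaminase Tgm2, 1.74 ± 0.17 (adjusted p = 1.13e-08). In GFP- cells they were Runx2, 3.17 ± 0.17 (adjusted p = 1.13e-13), Loxl4, 3.36 ± 0.22 (adjusted p = 7.64e-12), Sp7, 2.86 ± 0.20 (adjusted p = 1.41e-11), and P4ha3, a prolyl hydroxylase subunit, 1.98 ± 0.15 (adjusted p = 1.44e-10). In long bone Serpinh1, the collagen chaperone HSP47, led with 1.02 ± 0.11 (adjusted p = 4.64e-08), followed by Loxl4, 2.098 ± 0.22 (adjusted p = 4.83e-08), Runx2, 1.45 ± 0.17 (adjusted p = 2.09e-07), and Sp7, 1.63 ± 0.20 (adjusted p = 3.8e-07). Of the 15 hydroxylation and glycosylation genes, 7, 7 and 12 rose and 2, 3 and 0 fell in the 3 comparisons, and of 8 tested chaperone and export genes 6, 5 and 6 rose and none fell.

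For GFP, 0 pathway genes were higher and 2 lower in GFP+ EMB+ cells, Loxl1 at -0.63 ± 0.14 (adjusted p = 0.0111) and P4ha3 at -0.69 ± 0.15 (adjusted p = 0.0117). Among EMB- cells 5 were higher and 0 lower, with Runx2 at 1.10 ± 0.17 (adjusted p = 4.28e-05), the procollagen cleavage enhancer Pcolce at 0.91 ± 0.14 (adjusted p = 4.99e-05), the procollagen protease Adamts2 at 0.87 ± 0.19 (adjusted p = 0.00308) and Sp7 at 0.81 ± 0.20 (adjusted p = 0.00763). The higher and lower shares were 0% and 4% among EMB+ and 10% and 0% among EMB- cells. All genes gave 0.391% and 1.71%, and 2.25% and 6.22%. Between vertebra and long bone the counts higher and lower were 11 and 11 for GFP- EMB+, 12 and 14 for GFP+ EMB+, 11 and 17 for GFP- EMB- and 12 and 12 for GFP+ EMB- cells. As shares of the 50 tested, GFP- EMB+ cells had 22% and 22% and GFP+ EMB+ cells 24% and 28%. All genes gave 8.49% and 10.6%, and 8.66% and 12.9%. GFP- EMB- cells had 22% and 34% and GFP+ EMB- cells 24% and 24%, against 8.05% and 40.2%, and 7.4% and 40.4%. With the deposited values the lower shares of EMB- cells were thus below those of all genes. Median-ratio scaling gave EMB- cells 44% and 28%, and 50% and 10%, against 15.9% and 22.6%, and 17.1% and 23.8%.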

How the data were processed

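RNA was made into libraries with SMART-Seq v4 and Nextera XT, per the labels' protocols. Tools named in the submitters' processing notes are Cufflinks 2.1.1, STAR 2.5.2 and bcl2fastq 2.19, with the build GRCm38. The authors deposited FPKM of protein-coding genes in a single file, per the file headers, so counts and depth are unknown and low values are imprecise. Repeated identifiers and symbols were kept once and 3 genes with failed estimates left out, leaving 21948 genes. A linear model over the 6 groups was fitted in limma 3.58.1 (R 4.3.3) to log2(FPKM + 1), for 11767 genes with 1 FPKM or more in 4 libraries, with trend and robust variance, two-sided tests and Benjamini-Hochberg adjustment over all genes in each of 9 comparisons and 2 differences of differences. On simulated data for EMB in vertebral GFP+ cells (11767 genes) the fit recovered 89 of 100 genes with a 2-fold and 98 of 100 with a 4-fold change, and 9 of its 196 calls were false. Only 200 genes were changed there, and libraries were drawn independently of each other without a shift of all genes. The real comparison called 42.1% of genes higher and 7.85% lower, so these rates do not carry over to it.

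Members, lists and the rule for named genes (levels in every library where a group mean reached 10 FPKM, up to 5 largest changes per direction, up to 4 pathway genes with the smallest adjusted p) were chosen with earlier results of these data known. Marker lists covered chondrocyte, osteoblast, tendon and ligament, fibroblast and periosteum, endothelial, pericyte and smooth muscle, leukocyte, erythroid, skeletal muscle, Schwann cell and notochord genes. Replicate numbers come from the titles, except in long bone EMB+ cells, whose 4 titles carry the same number; there they follow the order of the samples and only name the libraries. Deviations of same-numbered libraries correlated above 0.1 in every pair for 5 of the 6 pairs of vertebral groups, not for GFP+ EMB+ with GFP+ EMB- (0.0971 to 0.279), nor for any with long bone EMB-. The alternatives were other pseudocounts, filters and scalings, only the compared groups, a replicate block and leaving out each library.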

Additional observations from a re-analysis of the deposited data

Results flagged for a closer look

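Among the levels, 6 values lay far from the other 3 of their group, in 28 members and 6 groups of 4 looked at, and chance alone flags about 1 group in 20. Low values were 90.8 FPKM for Col27a1 in vertebral GFP- EMB+ replicate 2, 862 FPKM for Col3a1 in GFP+ EMB- replicate 4, 2.52 FPKM for Col4a5 in long bone EMB- replicate 4 and 2801 FPKM for Col9a2 in GFP- EMB+ replicate 1. High values were 0.678 FPKM for Col5a3 in GFP+ EMB+ replicate 1 and 20.8 FPKM for Col5a3 in long bone EMB- replicate 2.

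The EMB+ minus EMB- difference was compared between GFP+ and GFP- vertebral cells, by a test of the difference in limma. It was higher in GFP+ cells for 3.2% and lower for 1.67% of all genes, and it differed for 6 members. The log2 differences of differences were -1.45 for Col14a1, -0.90 for Col8a1, -1.52 for Col22a1, -1.33 for Col13a1, -1.07 for Col1a1 and -0.98 for Col1a2. The first pair kept its calls in every fit run, and the other 4 did not.

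The EMB+ minus EMB- difference was compared between vertebral GFP- and long bone cells by the same test. It was higher in vertebra for 24.7% and lower for 5.07% of all genes, and it differed for 19 members. It was higher in vertebra by 2.66 for Col12a1, 1.92 for Col27a1, 1.75 for Col25a1, 1.69 for Col6a6, 1.55 for Col18a1, 1.52 for Col22a1, 1.47 for Col24a1, 1.41 for Col9a3, 1.23 for Col5a3, 0.88 for Col11a1, 0.74 for Col11a2 and 0.53 for Col9a2. It was lower, at -2.61 for Col15a1, -1.503 for Col4a5, -1.48 for Col5a2, -1.39 for Col4a2, -1.05 for Col4a6, -1.034 for Col5a1 and -0.92 for Col8a1. Col22a1 and Col11a2 lost their calls under each of the 3 other scalings, and Col9a2 also in 9 of 16 fits without a library.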

How the results depend on the processing

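Across 3539 refits of the 202 calls of members, 3258 kept direction and threshold, 277 lost the threshold and 4 changed sign. These 4 came from quantile normalization: 0.0503 for Col5a1 in vertebral GFP- against long bone EMB- cells, 0.13 for Col1a1 and 0.62 for Col1a2 in GFP+ against long bone EMB- cells, and -0.024 for Col9a2 in the EMB difference of vertebral GFP- minus long bone; the cause was not tested. For EMB in long bone, a fit of only the compared groups called 9 members, with fewer libraries to estimate the spread. For GFP in EMB+ cells 1 member was called with a pseudocount of 5, without a filter, with the filter of 5 FPKM, and under each of the 3 other scalings, and 8 with the replicate block. For GFP in EMB- cells 4 were called with a pseudocount of 5 or with scaling to genes other than collagen and hemoglobin, and 17 with the block. The EMB difference of GFP+ minus GFP- cells had 2 calls with a pseudocount of 5 or without a filter, 3 under median-ratio scaling and 14 with the block (4 higher, 10 lower); these causes were not tested.

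The replicate block changed no count by over 1.5 times in the other comparisons where it could be fitted: 30 members for EMB in GFP+ and 30 in GFP- cells, 23 and 19 for vertebral GFP- and GFP+ against long bone EMB- cells. No block was possible for long bone EMB+, whose titles all carry the same number. Leaving out 1 library at a time gave 24 to 26, 23 to 25 and 14 to 17 calls for EMB in GFP+, GFP- and long bone cells, 1 to 2 and 4 to 6 for GFP in EMB+ and EMB- cells, 23 to 27 and 24 to 27 for vertebral GFP- and GFP+ against long bone among EMB+ cells, 25 to 28 and 21 to 23 among EMB- cells, and 2 to 6 and 18 to 20 for the 2 differences of differences. Under median-ratio scaling 100 of the levels of 28 members in 6 groups moved by less than 1 SD, and the others by more. Depth is unknown, so no counting error can be given for low values.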
